A study of Homo sapiens with 6 samples.

Results

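The collagen genes were taken as every listed gene whose name is COL, a number, the letter A and a second number, with nothing more. Of the 38648 listed genes and gene copies, 50 met this rule under 44 gene names, since COL11A2 was listed 7 times, with 6 of the copies on scaffolds outside the assembled chromosomes. The measurements were bulk RNA-seq libraries of HK-2, a line of immortalised proximal tubular epithelial cells of the human kidney. Cell lines had been made with either a lentivirus serving as negative control (IR+NC-LV, n = 3) or a lentivirus for overexpression of PRDM16, a zinc finger transcription regulator (IR+PR-LV, n = 3). Every library came from cells given a single dose of 8 Gy of X-rays and collected on day 7, so levels describe irradiated cells, and unirradiated cells were not analysed here. The question put to the collagen genes was which types irradiated tubular cells expressed, and whether their levels differed between cells with the PRDM16 virus and cells with the control virus.

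Collagens are proteins of the extracellular matrix whose helices are wound from chains named α, each from a gene of its own. Fibrillar collagens such as types I, III and V form the cables of the interstitium and are the classical deposit of kidney fibrosis. Type IV collagen forms the sheet of the basement membrane on which tubular cells sit, type VI forms beaded filaments beside it, type VII anchors epithelia to the stroma, and types XV and XVIII, the multiplexins, carry glycosaminoglycan chains at the edge of the basement membrane. FACIT collagens attach to the surface of fibrils, type VIII and type X form short-chain networks, and types XIII, XVII, XXIII and XXV span the plasma membrane.

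Each library held between 13407074 and 28540041 counts. At that depth a count of 0 allowed at most 0.105 to 0.224 CPM (counts scaled by library size, with 3 counts as the limit for counting error). PRDM16 itself had 2, 0 and 1 counts with the control virus and 14, 10 and 8 with the PRDM16 virus. Levels below are normalised FPKM, the count scaled by edgeR's TMM factors, as CPM, per kilobase of the listed exon length. The epithelial markers KRT8 and KRT18 were at 245 ± 13.8 and 185 ± 8.63 normalised FPKM (SD, n = 3) in IR+NC-LV, and CDH1 of the same list was at 0.103 ± 0.0278. Of 6 markers of mature proximal tubules 4 passed the filter on low counts, with AQP1 highest at 0.847 ± 0.173, and the endocytic receptor gene LRP2 had 3 counts in all. Of the fibroblast and pericyte markers, LUM was at 36.9 ± 3.25 in IR+NC-LV against 38.4 ± 8.28 in IR+PR-LV, while DCN and PDGFRA had 22 and 19 counts in all. Summed over the 8 markers of that list, of which 4 passed the filter, the level was 34.4 to 40.5 in IR+NC-LV against 29.7 to 44.8 in IR+PR-LV. The 4 endothelial markers had 3 to 52 counts in all, with 15, 9 and 11 counts of VWF in IR+NC-LV against 1, 6 and 6 in IR+PR-LV. Of the 4 leukocyte markers, PTPRC and CD3E had 10 and 2 counts in all, CD14 was at 1.33 ± 0.276 and 1.21 ± 0.223, and CD68 at 58.3 ± 5.65 and 50.1 ± 2.68. Among the 18 markers tested, EPCAM (log2 fold change 0.22, unadjusted p = 0.0494 from edgeR) and CD68 (−0.22, unadjusted p = 0.0256) had a p under 0.05, which is 11.1% against 10.5% of all genes tested. Their part in the collagen results was not tested. In bulk RNA, fewer cells of a type cannot be told apart from less RNA per cell. Nothing in the labels says that the libraries came from separate cultures, so p-values measure only the spread between these samples, which may be technical.

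The library IR+PR-LV replicate 1 stood apart for the collagen genes. Of the 27 collagen genes kept by edgeR's low-count filter, 15 (55.6%) had their highest normalised level in it, against 23.6% of all 15340 genes and copies tested. The collagen genes are rich in G and C, with a median GC content of 55.4% of the transcript against 48.6% for all tested genes with a value, and 7 of the 27 lay among the 10% of genes with the highest GC content. In IR+PR-LV replicate 1, all 12 collagen genes with a GC content of at least 60% lay above their own mean over the 6 libraries, by a median of 0.29 on the log2 scale. The other 15 collagen genes had a median deviation of 0.056, with 9 of them above their mean. All genes together showed the same tilt in that library, from a median deviation of −0.12 in the 10% of genes with the lowest GC content to 0.23 in the 10% with the highest. When the trend with GC content and length was removed from each library, an alternative chosen after seeing the data, the median deviation of the 27 collagen genes in that library went from 0.21 to 0.080. Group comparisons of the collagen genes and of the related lists are therefore given with and without this library, and what set it apart was not tested. IR+PR-LV replicate 3 had the opposite tilt, from a median deviation of 0.11 in the lowest 10% of genes by GC content to −0.15 in the highest. The 12 collagen genes at 60% GC or more had a median of −0.15 in it, with 2 above their own mean. Fits without IR+PR-LV replicate 1 thus keep a library with the opposite tilt.

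Irradiated HK-2 cells expressed collagens mainly through a few non-fibrillar types and type V. The collagen share of counts was 0.261%, 0.261% and 0.285% in IR+NC-LV against 0.314%, 0.244% and 0.240% in IR+PR-LV, highest in IR+PR-LV replicate 1 and lowest in the other two libraries of the same group. COL4A1 and COL4A2 together held 37.9% of the 305062 collagen counts, those and COL7A1 and COL6A2 held 62.0%, and the 8 genes with the most counts held 89.7%. By class, the basement membrane network held 38.1%, beaded filaments 21.2%, the anchoring fibril 12.6%, fibrillar collagens 11.9%, multiplexins 5.46%, short-chain networks 5.29% and FACIT collagens 5.18%. Shares of counts also depend on transcript length, and per listed exon length the first places changed. On the listed lengths, beaded filaments summed to 109 to 151 normalised FPKM against 108 to 141 for the basement membrane network. They were the higher in every library. On the lengths of the longest coding transcripts in GENCODE release 29, the means over the 6 libraries were 88.0 for COL4A2 and 67.2 for COL4A1. For COL6A2 and COL6A1 they were 89.1 and 61.4, so the order of these classes depends on the length used. The 23 collagen rows left out by the filter held 0.125%. The summed TMM-normalised level was 2659 ± 84.0 CPM in IR+NC-LV against 2703 ± 414 in IR+PR-LV (SD, n = 3), a log2 ratio of 0.024, and the groups overlapped.

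**Figure D1:**
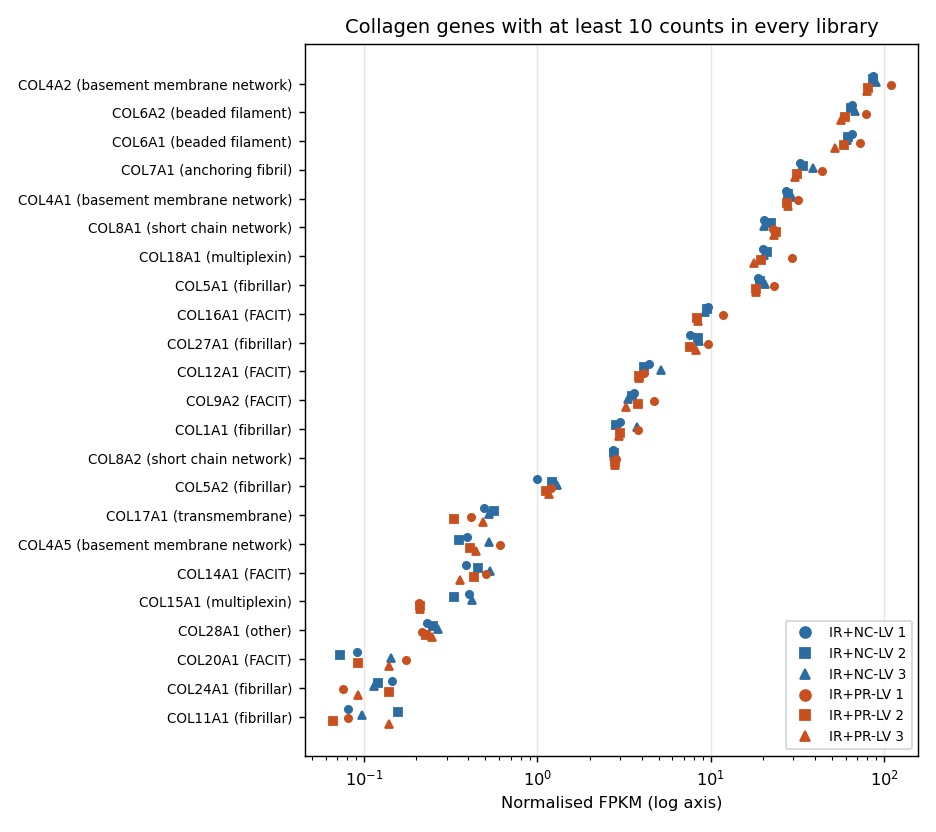
Normalised FPKM on a log axis (x) of the 23 collagen genes with at least 10 counts in every library, ordered by level, with 1 point per library. Levels span from 109 for COL4A2 in IR+PR-LV replicate 1 to 0.0658 for COL11A1 in IR+PR-LV replicate 2, and the libraries of both groups intermingle for most genes.

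COL4A2, which encodes the α2 chain of the ubiquitous type IV network, was the collagen gene with the highest level per listed exon length. By that level it ranked 590 among all 38648 listed genes and copies. On the GENCODE transcript lengths COL6A2, at a mean of 89.1, was above it, at 88.0. COL4A2 was at 86.6, 85.9 and 89.4 normalised FPKM in IR+NC-LV and at 109, 80.8 and 80.1 in IR+PR-LV. Its partner chain gene COL4A1 was at 27, 27.7 and 29.4 in IR+NC-LV and at 31.7, 27.6 and 27.7 in IR+PR-LV. For both genes IR+PR-LV replicate 1 was the highest library, and the other two libraries of IR+PR-LV lay at or near the range of IR+NC-LV, just below it for COL4A2 and within it for COL4A1. The log2 fold change between the groups was 0.042 (SE 0.11, adjusted p = 0.915) for COL4A2 and 0.048 (SE 0.071, adjusted p = 0.846) for COL4A1 (SE is the standard error, and p-values come from the quasi-likelihood test of edgeR, adjusted by Benjamini-Hochberg). The listed exon length of COL4A1, 15595 bases, is far beyond the 6616 bases of its longest coding transcript in GENCODE release 29, and on that transcript's length its mean level over the 6 libraries was 67.2.

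Type IV collagen genes lie in head-to-head pairs that are read away from each other. COL4A1 occupies positions 110148963 to 110307157 of chromosome 13 (hg38, minus strand) and COL4A2 positions 110307284 to 110513209 (plus strand), with 126 bases between their listed starts. The distance was 106 bases for COL4A4 and COL4A3 on chromosome 2 and 344 bases for COL4A6 and COL4A5 on the X chromosome. The 300-base windows around the RefSeq starts (GRCh38.p14) of the paired genes share 226, 82 and 121 bases, in that order. The windows of the plus-strand gene of each pair are printed 5′ to 3′ because the pairs differed so widely in level, with CCAAT and GGGCGG boxes in capitals on either strand (ATTGG and CCGCCC on the opposite strand). COL4A2 lies at chr13:110307034-110307333, COL4A3 at chr2:227164374-227164673 and COL4A5 at chrX:108439588-108439887, all on the plus strand.
COL4A2: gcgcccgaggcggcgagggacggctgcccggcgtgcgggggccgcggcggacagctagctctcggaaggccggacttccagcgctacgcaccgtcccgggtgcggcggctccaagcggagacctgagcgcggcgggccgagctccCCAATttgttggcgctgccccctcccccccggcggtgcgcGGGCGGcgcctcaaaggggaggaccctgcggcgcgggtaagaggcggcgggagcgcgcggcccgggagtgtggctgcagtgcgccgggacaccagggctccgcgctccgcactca
COL4A3: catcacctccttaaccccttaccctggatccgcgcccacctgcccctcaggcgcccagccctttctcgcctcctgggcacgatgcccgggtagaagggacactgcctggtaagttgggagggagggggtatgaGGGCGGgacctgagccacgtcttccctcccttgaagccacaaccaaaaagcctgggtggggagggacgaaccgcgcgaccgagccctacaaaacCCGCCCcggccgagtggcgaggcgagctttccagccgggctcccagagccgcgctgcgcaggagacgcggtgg
COL4A5: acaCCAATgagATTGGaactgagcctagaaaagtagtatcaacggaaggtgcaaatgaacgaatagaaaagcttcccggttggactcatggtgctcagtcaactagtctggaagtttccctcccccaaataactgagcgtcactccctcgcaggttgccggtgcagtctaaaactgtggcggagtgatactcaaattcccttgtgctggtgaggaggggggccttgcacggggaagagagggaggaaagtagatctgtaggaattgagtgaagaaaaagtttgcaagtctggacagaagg
The COL4A2 window held 45 CpG dinucleotides, 1 CCAAT and 1 GGGCGG box, the COL4A3 window 24 CpG and 2 GGGCGG boxes, and the COL4A5 window 8 CpG and 2 CCAAT boxes. Among 35116 windows of the same length, 34.6% hold a CCAAT box and 45.0% a GGGCGG box on either strand, so these matches are common and describe letters, not binding.

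The other type IV chains were far lower. COL4A5, the gene of the α5 chain found in the glomerular and distal tubular basement membrane, was at 0.394, 0.353 and 0.526 normalised FPKM in IR+NC-LV and at 0.607, 0.409 and 0.442 in IR+PR-LV. Both groups overlapped, and the adjusted p was 0.793. COL4A3, whose chain joins those of COL4A4 and COL4A5 in the mature glomerular membrane, had 7 to 16 counts per library, and its log2 fold change was 0.26 with a 95% interval of −0.55 to 1.08. Its head-to-head neighbour COL4A4 had 5, 6 and 4 counts in IR+NC-LV against 8, 16 and 7 in IR+PR-LV. The ratio of the count rates was 1.65 (exact 95% interval 0.864 to 3.29, counting error only), so no difference was detectable at this depth. COL4A6 had 2 counts in every IR+NC-LV library and 3 in every IR+PR-LV library.

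The multiplexins, the collagens that carry endostatin-like ends, differed widely in level. COL18A1, the source of endostatin, was at 20.0, 21.2 and 20.4 normalised FPKM in IR+NC-LV and at 29.6, 19.5 and 17.8 in IR+PR-LV, so its highest and its lowest values were both in IR+PR-LV. Its log2 fold change was 0.12 (SE 0.16, adjusted p = 0.838), and −0.14 without IR+PR-LV replicate 1 (unadjusted p = 0.0562). Of its listed exon bases, 18.3% overlap exons of genes on the opposite strand, among them the folate carrier gene SLC19A1, and the strand setting of the counting is not given in the sources used here, so part of its count may belong to them.

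COL15A1, a basement membrane zone proteoglycan gene, had the lowest p-value of any collagen gene. Its level was 0.404, 0.330 and 0.422 normalised FPKM in IR+NC-LV against 0.207, 0.210 and 0.209 in IR+PR-LV, with every IR+PR-LV library below every IR+NC-LV library. These levels rest on 37, 38 and 32 counts against 19, 32 and 21. The log2 fold change was −0.87 (SE 0.20, 95% interval −1.32 to −0.42, unadjusted p = 0.0017), a level 0.547 times that of the control. With Benjamini-Hochberg adjustment over the 15340 tested genes and copies the edgeR p was 0.205, so the gene did not pass the threshold of 0.05. In DESeq2 its unadjusted p was larger, at 0.0206, with an adjusted p of 0.423. The IR+PR-LV values lay closer together (SD 0.0012, n = 3) than counting error at such counts usually allows. Its value hardly depended on IR+PR-LV replicate 1 or on GC content, at −0.87 without that library (unadjusted p = 0.0055), −0.85 with the GC and length trend removed (unadjusted p = 0.0018) and −0.82 with both changes (unadjusted p = 0.0064). The window around its RefSeq start, at chr9:98943657-98943956 on the plus strand (GRCh38.p14), is printed because no other collagen gene kept by the low-count filter separated the groups as widely, with its GGGCGG box in capitals.
COL15A1: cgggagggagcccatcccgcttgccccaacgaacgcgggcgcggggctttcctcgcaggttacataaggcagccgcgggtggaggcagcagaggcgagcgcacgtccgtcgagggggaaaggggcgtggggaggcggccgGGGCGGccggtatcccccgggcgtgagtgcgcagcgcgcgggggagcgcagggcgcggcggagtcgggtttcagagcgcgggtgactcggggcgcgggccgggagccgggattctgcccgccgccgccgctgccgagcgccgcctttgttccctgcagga
It held 45 CpG dinucleotides, as many as that of COL4A2, a gene with a far higher level.

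COL7A1, the gene of the anchoring fibril that ties epithelia to the stroma, was at 32.8, 34.2 and 38.8 normalised FPKM in IR+NC-LV and at 43.8, 31.4 and 30.8 in IR+PR-LV. The libraries of IR+PR-LV lay on both sides of those of IR+NC-LV, and the log2 fold change was 0.0022 (SE 0.13, adjusted p = 0.996).

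Type VI collagen was expressed through its α1 and α2 chains. COL6A2 was at 65.2, 64.1 and 67.8 normalised FPKM in IR+NC-LV and at 78.1, 59.4 and 56.4 in IR+PR-LV. COL6A1 was at 64.9, 61.5 and 61.4 in IR+NC-LV and at 72.6, 58.5 and 52.2 in IR+PR-LV. For both genes IR+PR-LV replicate 1 was above, and the other two IR+PR-LV libraries below, every IR+NC-LV library, which left fitted differences of −0.024 (adjusted p = 0.955) and −0.035 (adjusted p = 0.928) on the log2 scale. COL6A3, the gene of the large α3 chain that completes the classical type VI heterotrimer, had only 6, 15 and 11 counts in IR+NC-LV against 14, 13 and 9 in IR+PR-LV. COL6A6 and COL6A5, genes of alternative chains in its place, had 58 and 4 counts in all 6 libraries, so COL6A6 came close in count to COL6A3 with its 68.

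COL8A1, the gene of the α1 chain of the short-chain network around vessels and in Descemet's membrane, was higher in every IR+PR-LV library than in any IR+NC-LV library. It was at 20.4, 22.3 and 20.2 normalised FPKM in IR+NC-LV and at 22.9, 23.7 and 23.1 in IR+PR-LV. The fitted ratio of IR+PR-LV to IR+NC-LV was 1.11, with a log2 fold change of 0.15 (SE 0.063, unadjusted p = 0.0402, adjusted p = 0.450). Its partner COL8A2 was at 2.73, 2.78 and 2.77 in IR+NC-LV and at 2.86, 2.82 and 2.80 in IR+PR-LV, also without overlap but with a log2 fold change of only 0.033 (SE 0.087, adjusted p = 0.916). COL10A1, a marker of hypertrophic cartilage, had 9 to 26 counts per library and an adjusted p of 0.940.

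Among fibrillar collagens the regulatory type V chain led, and the bulk chains of interstitial fibres were low. COL5A1, whose chain starts fibril assembly, was at 18.7, 19.2 and 20.4 normalised FPKM in IR+NC-LV and at 23.1, 18.2 and 18.2 in IR+PR-LV. COL27A1, a cartilage-type fibrillar chain gene, was at 7.63, 8.49 and 8.57 in IR+NC-LV and at 9.60, 7.58 and 8.18 in IR+PR-LV. COL1A1, the gene of the main chain of type I collagen, was at 3.0, 2.85 and 3.75 in IR+NC-LV and at 3.79, 2.99 and 2.95 in IR+PR-LV. The groups overlapped for each of these genes.

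COL5A2, the partner of COL5A1, was at 0.999, 1.21 and 1.29 normalised FPKM in IR+NC-LV and at 1.2, 1.12 and 1.1597 in IR+PR-LV. COL3A1, the reticular fibre collagen, had 5, 18 and 21 counts in IR+NC-LV against 16, 35 and 19 in IR+PR-LV. COL24A1 was at 0.145, 0.120 and 0.114 normalised FPKM in IR+NC-LV and at 0.0754, 0.140 and 0.0918 in IR+PR-LV. COL11A1 was at 0.0804, 0.157 and 0.0971 in IR+NC-LV and at 0.0803, 0.0658 and 0.140 in IR+PR-LV. None of the 7 tested fibrillar genes had an unadjusted p under 0.05. For COL1A1 the 95% interval of the ratio between the groups ran from 0.820 to 1.26, and for COL3A1, with its few counts, from 0.642 to 2.5.

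Of the FACIT collagens, COL16A1 and COL12A1 had the highest levels per listed exon length. On the GENCODE transcript lengths COL9A2, at a mean of 5.56 over the 6 libraries, was above COL12A1, at 4.78. COL16A1 was at 9.67, 9.55 and 9.27 normalised FPKM in IR+NC-LV and at 11.7, 8.27 and 8.46 in IR+PR-LV, again with IR+PR-LV replicate 1 above and the other two below the control libraries. COL12A1, whose long chain bridges fibrils in tissues under tension, was at 4.43, 4.10 and 5.18 in IR+NC-LV and at 4.13, 3.83 and 3.85 in IR+PR-LV. Its groups overlapped by a single pair of libraries, and the level was 0.863 times that of the control, with a log2 fold change of −0.21 (SE 0.092, unadjusted p = 0.0465, adjusted p = 0.465). COL9A2, a cartilage FACIT gene, was at 3.62, 3.53 and 3.33 in IR+NC-LV and at 4.73, 3.80 and 3.23 in IR+PR-LV. COL14A1 was at 0.387, 0.451 and 0.531 in IR+NC-LV and at 0.506, 0.432 and 0.359 in IR+PR-LV. COL20A1 was at 0.0908, 0.0723 and 0.143 in IR+NC-LV and at 0.174, 0.0922 and 0.140 in IR+PR-LV, and the groups overlapped for COL9A2, COL14A1 and COL20A1 alike.

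COL17A1, the transmembrane collagen of hemidesmosomes, was at 0.489, 0.558 and 0.526 normalised FPKM in IR+NC-LV and at 0.414, 0.331 and 0.484 in IR+PR-LV. Each IR+PR-LV library lay below each IR+NC-LV library, narrowly so for replicate 3, and the log2 fold change was −0.37 (SE 0.19, unadjusted p = 0.0867, adjusted p = 0.542). With each library left out in turn that change ranged from −0.51 (without IR+PR-LV replicate 3, unadjusted p = 0.0417) to −0.22 (without IR+PR-LV replicate 2). COL28A1, a von Willebrand factor domain collagen of the nerve sheath, was at 0.232, 0.250 and 0.266 in IR+NC-LV and at 0.216, 0.227 and 0.245 in IR+PR-LV, with overlap.

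Across the collagen genes, none passed the adjusted threshold. Of the 27 tested, 0 had an adjusted p under 0.05 in the quasi-likelihood test, against 10 of all 15340 (0.0652%), and DESeq2 called 0 collagen genes against 173 of all (1.13%). At an unadjusted p under 0.05 there were 3, COL15A1, COL8A1 and COL12A1, which is 11.1% against 10.5% of all tested genes and copies, a share near the background. COL15A1 and COL12A1 were lower (5.97% of all tested were lower at this level) and COL8A1 was higher (4.55%). The log2 fold changes of 15 were above 0 and of 12 below, with a median of 0.022 against 0.0044 over all tested, and the median size of the difference was 0.096 against 0.10. The groups did not overlap for 4 of the 27 (14.8%), COL15A1, COL8A1, COL8A2 and COL17A1, against 17% of all tested. For 17 of the 27 genes the whole 95% interval of the ratio lay within 1.5-fold in either direction. The share over all tested genes was not taken, so this count cannot be read as particular to collagen genes. COL4A1 had an interval of 0.925 to 1.155.

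**Figure D2:**
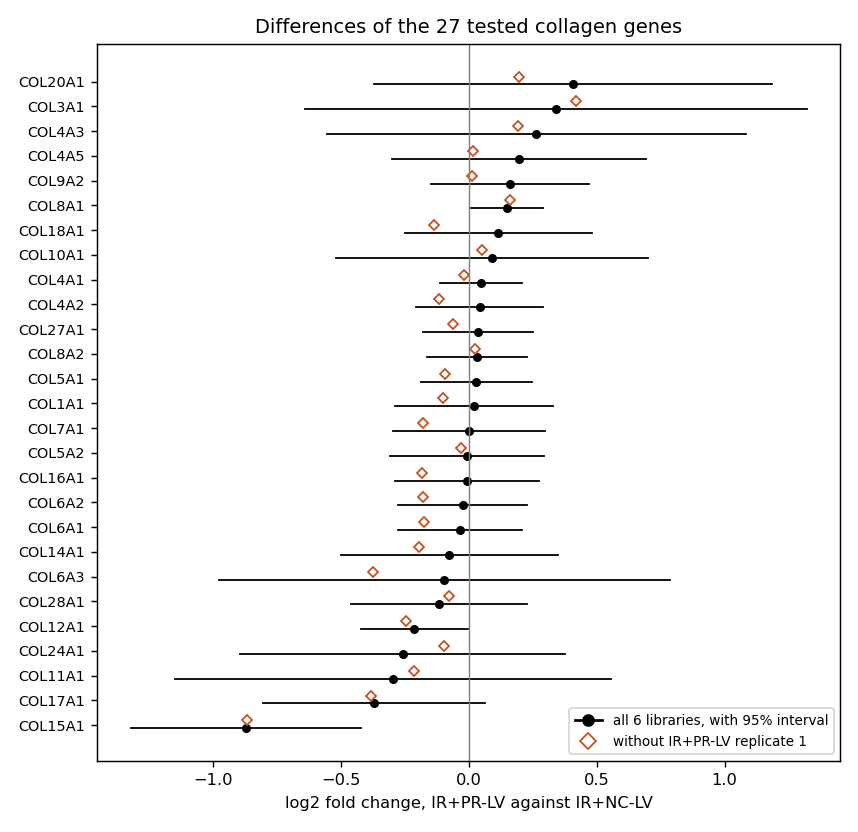
The log2 fold change of IR+PR-LV against IR+NC-LV (x axis) for the 27 tested collagen genes, from edgeR, as black points with 95% intervals for all 6 libraries, and as open diamonds for the fit without IR+PR-LV replicate 1. Of the intervals, 3 exclude 0, those of COL15A1, COL8A1 and COL12A1, and the diamonds of 7 genes, COL4A1, COL4A2, COL18A1, COL7A1, COL5A1, COL27A1 and COL1A1, lie below 0 while their points lie above it.

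Without IR+PR-LV replicate 1 the balance of directions changed. Of 28 collagen genes tested, 19 then had a log2 fold change below 0, with a median of −0.094 against −0.011 over all tested genes. At an unadjusted p under 0.05 there were 8 (28.6%, against 16.4% of all tested), of which 7 were lower in IR+PR-LV (7.65% of all tested were lower at this level) and COL8A1 was higher (8.73%). The 7 were COL15A1, COL6A2, COL16A1, COL6A1, COL12A1, COL7A1 and COL4A2. For COL6A2 the log2 fold change was −0.18 (unadjusted p = 0.0109), and for COL4A2 it was −0.12 (unadjusted p = 0.0497). None passed with adjustment over all genes (0.0443% of all tested did), the lowest adjusted p being 0.163 for COL15A1. In the same fit 2 of 19 cell type markers had an unadjusted p under 0.05 (10.5% against 16.4% of all tested). LUM, a fibroblast marker, was at 0.22 on the log2 scale (unadjusted p = 0.0213), against 0.058 with all libraries. The endothelial marker VWF, with few counts, was at −1.37 (unadjusted p = 0.0246). Of the 4 fibroblast and pericyte markers tested, 1 was above 0 and 3 were below, with a median of −0.20. The part of these markers in the result was not tested.

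The 5 genes that joined the list without IR+PR-LV replicate 1 all had a GC content of at least 60%. COL6A2 was at 66.4%, COL7A1 at 64.8%, COL6A1 at 63.5%, COL16A1 at 62.8% and COL4A2 at 62.0%. With the GC and length trend removed from every library, the 3 genes with an unadjusted p under 0.05 were the same as before, COL15A1, COL8A1 and COL12A1, with all 6 libraries and without that library alike (11.1% each time, against 16.1% and 14.8% of all genes tested). In the latter fit COL6A2 was at −0.098 (unadjusted p = 0.094) and COL4A2 at −0.017 (unadjusted p = 0.736), and the lowest adjusted p of any collagen gene was 0.200. No collagen gene passed the adjusted threshold in either fit, against 0.36% and 0.0793% of all genes tested.

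**Figure D3:**
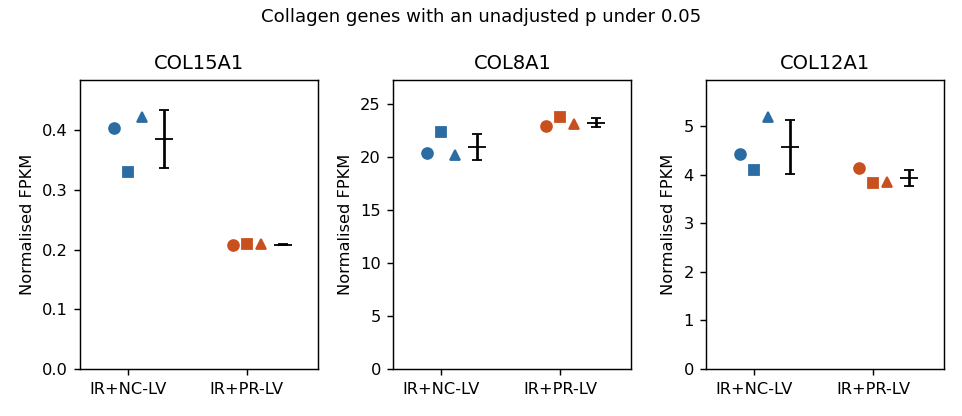
Normalised FPKM (y axis, from 0) of the 3 collagen genes with an unadjusted p under 0.05, with 1 point per library and the mean with its SD as a bar beside each group of 3. COL15A1 and COL8A1 show no overlap between the groups, and for COL12A1 IR+PR-LV replicate 1 (4.13) lies just above IR+NC-LV replicate 2 (4.10).

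These 3 genes did not rest equally on all libraries. With each library left out in turn, COL15A1 had an unadjusted p under 0.05 in all 6 fits, with log2 fold changes between −0.98 and −0.80. COL8A1 and COL12A1 kept theirs in 2 of the 6 fits, those without IR+NC-LV replicate 2 and without IR+PR-LV replicate 1. COL8A1 stayed above 0 in every fit (0.12 to 0.20) and COL12A1 below 0 (−0.29 to −0.11).

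Chains that share a helix were then compared with each other in each library, as the ratio of their levels per length. COL4A2 was 3.21, 3.10 and 3.04 times COL4A1 in IR+NC-LV against 3.44, 2.93 and 2.89 times in IR+PR-LV. On the length of the longest coding transcript in GENCODE, chosen after seeing the data, the same ratio ran from 1.22 to 1.45 over the 6 libraries, so its size depends on the length used. COL6A2 was 1.005, 1.04 and 1.10 times COL6A1 in IR+NC-LV against 1.08, 1.01 and 1.08 times in IR+PR-LV, and 1.39 to 1.52 times on the GENCODE lengths. COL5A2 was 0.0520 to 0.0637 times COL5A1, and COL8A2 0.119 to 0.138 times COL8A1, so in these types the α2 transcript was the scarcer.

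No difference between the groups was found in the 4 ratios, in a design of 3 libraries against 3 whose smallest possible p is 0.1. The smallest p was that of COL8A2 over COL8A1, with 0.132 ± 0.00678 in IR+NC-LV against 0.122 ± 0.0030 in IR+PR-LV (SD, n = 3; 2-sided exact permutation test, p = 0.2, adjusted over the 4 ratios 0.8). The ratios of COL4A2 over COL4A1 and COL6A2 over COL6A1 each gave p = 0.9 and that of COL5A2 over COL5A1 gave p = 0.7 in the same exact permutation test.

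Other partner chains were too sparse for a ratio in each library and are given as counts pooled over the 6. COL1A1 had 2161 counts and COL1A2, the gene of the other chain of the common type I heterotrimer, had 7, with a ratio per length of 0.0038 (exact 95% interval 0.0015 to 0.0078, for counting error). COL6A3 had 68 counts beside 29653 of COL6A1, a ratio of 0.00085 (0.00066 to 0.0011). COL4A6 was at 0.035 times COL4A5 (0.019 to 0.058), COL9A3 at 0.022 times COL9A2 (0.014 to 0.032) and COL4A4 at 0.54 times COL4A3 (0.36 to 0.80). COL11A2 on chromosome 6 was at 0.23 times COL11A1 (0.14 to 0.36), from 23 of the 69 counts of its 7 listings, so the ratio would be higher with the copies counted in. Per length, COL1A2 and COL6A3 were thus each below 1% of the chain they usually join.

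The 23 collagen rows left out by the filter had 1 to 58 counts in all 6 libraries and at most 16 in any library. They comprise COL1A2, COL2A1, COL4A4, COL4A6, COL5A3, COL6A5, COL6A6, COL9A1, COL9A3, COL13A1, COL19A1, COL21A1, COL22A1, COL23A1, COL25A1, COL26A1 and all 7 listings of COL11A2, which held 69 counts between them. COL2A1, the cartilage fibre collagen, had 12 counts in each group. COL19A1 had a single count, in IR+PR-LV replicate 3, and every collagen name had at least 1. COL1A2 had 0, 1 and 0 counts in IR+NC-LV against 1, 4 and 1 in IR+PR-LV, a rate ratio of 4.79 whose exact 95% interval ran from 0.581 to 220. Differences of this size could not be resolved at these counts.

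RefSeq windows were at hand for 32 of the 44 collagen names. For collagen names with several windows, the window with the most CpG dinucleotides was taken. The 17 of them with at least 10 counts in every library had a median of 29 CpG dinucleotides (1 to 46) and the other 15 a median of 22 (3 to 38). Over all genes the medians were 28 for 11081 genes with at least 10 counts in every library and 5 for the other 12416. Collagen genes with few counts thus had windows with more CpG dinucleotides than other listed genes with few counts, a description for which no test was made. At the low end, COL17A1 and COL28A1 had 1 CpG dinucleotide each. The windows of COL10A1 held 1, 3 and 2.

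Nearly all genes of the machinery that modifies, folds, exports and crosslinks collagen passed the filter on low counts, some at low levels. The lowest that passed was ADAMTS14, at a mean of 0.127 normalised FPKM over all libraries. P4HA3, TLL2, LOXL3, COLGALT2 and LOXL4 were at 0.439 to 0.826. The list holds 40 genes for hydroxylation, folding, export, propeptide removal, crosslinking and proline supply, of which 39 were tested. Of these 0 passed the adjusted threshold (0.0652% of all genes tested did). Log2 fold changes were above 0 for 27 and below for 12, with a median of 0.087 against 0.0044 over all tested. The highest level was that of P4HB, the shared subunit of prolyl 4-hydroxylase, at 319 ± 12.8 normalised FPKM in IR+NC-LV against 350 ± 37.0 in IR+PR-LV (SD, n = 3; adjusted p = 0.594). At an unadjusted p under 0.05 there were 5 (12.8% against 10.5% of all tested), 4 with log2 fold changes above 0 (4.55% of all tested) and 1 below (5.97%). P3H2, a prolyl 3-hydroxylase that acts on type IV collagen, was at 42.5, 42.9 and 42.5 in IR+NC-LV and at 50.1, 49.2 and 49.4 in IR+PR-LV, with a log2 fold change of 0.22 (SE 0.052, adjusted p = 0.216). The lysyl hydroxylase gene PLOD2 was at 0.24 (adjusted p = 0.328), the chaperone gene FKBP14 at 0.27 (adjusted p = 0.372) and PCOLCE2, an enhancer of propeptide removal, at 0.26 (adjusted p = 0.397). MIA2, which helps load collagen into transport carriers, was at −0.19 (adjusted p = 0.468). Without IR+PR-LV replicate 1 there were 8 of 40 (20% against 16.4% of all tested), with P4HA1, PPIB and SEC23A added. Of these 7 were above 0 (8.73% of all tested were higher at this level) and 1 below (7.65%). The median of the list was 0.030 against −0.011 over all tested. With the GC and length trend removed there were 11 of 39 (28.2% against 16.1%), with P4HA1, P4HB, P3H4, COLGALT1, SEC23A and PYCR1 added. Of these 10 were above 0, and the shares of all genes by direction were not taken for this fit. The median of the list was 0.090 against 0.013 over all tested.

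Receptors and cleaving enzymes were described in the same way. Of 9 collagen receptor genes, 7 were tested and 0 passed the adjusted threshold (0.0652% of all genes tested did), while 1 (14.3% against 10.5%) had an unadjusted p under 0.05. ITGB1, the β1 integrin chain shared by the collagen-binding integrins and the highest of the list, was at 560 ± 27.9 normalised FPKM in IR+NC-LV against 662 ± 36.1 in IR+PR-LV (SD, n = 3), with a log2 fold change of 0.24 (SE 0.065, unadjusted p = 0.0047, adjusted p = 0.264), and of 0.28 without IR+PR-LV replicate 1. In that fit ITGB1 was again the 1 receptor gene with an unadjusted p under 0.05, of 8 tested (12.5% against 16.4%). Of those 8, 6 were below 0, with a median of −0.11 against −0.011 over all tested. Of 10 genes for collagen cleavage and its inhibitors, 8 were tested and 0 had an unadjusted p under 0.05, against 10.5% of all genes tested. Without IR+PR-LV replicate 1 there were 2 of 8 (25% against 16.4%), both below 0 (7.65% of all tested were lower at this level). They were the gelatinase gene MMP9 at −0.55 (unadjusted p = 0.0366 from edgeR) and the inhibitor gene TIMP1 at −0.19 (unadjusted p = 0.030). With the GC and length trend removed TIMP1 alone remained, at −0.15 (unadjusted p = 0.0198). The highest level of the list was that of the inhibitor gene TIMP2, at 113 ± 9.39 and 123 ± 8.19.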

How the data were processed

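Poly(A)-selected RNA of each library was sequenced as paired ends. The submitters' processing notes name CASAVA, featureCounts 2.0.1, DESeq2 1.16.1 and hg38, whereas the aligner, the annotation and the strand setting are not given in the sources used here. The authors deposited, for each library, raw read counts per gene, with TPM and FPKM values that follow from those counts and the listed exon lengths.

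Groups were taken from the labels. The counts were compared with edgeR 4.0.16 in R 4.3.3 (filterByExpr, TMM factors of 0.981 to 1.04, quasi-likelihood test, biological coefficient of variation 0.106), with Benjamini-Hochberg adjustment over all 15340 tested rows and a threshold of 0.05. DESeq2 1.42.0 was an alternative. Chain ratios were tested by exact permutation. Total counts ranged from 13407074 to 28540041. Intervals on counts cover counting error only, because they were taken on counts summed over libraries and leave out the spread between libraries. The reads carry no molecular identifiers. GC content and transcript lengths came from GENCODE release 29 (90.4% of tested rows), promoter windows from RefSeq.

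The collagen genes, classes and related lists were chosen with earlier results of these data known. Members with at least 10 counts in every library were given in each library, those with an unadjusted p under 0.05 in full, and of related lists the genes with an unadjusted p under 0.05 and the highest gene were named, with a few others chosen after their values were seen.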

Additional observations from a re-analysis of the deposited data

How the results depend on the processing

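No collagen gene passed the adjusted threshold in any of the fits run (0 with each library left out in turn), and at an unadjusted p under 0.05 there were 3 with all libraries, 2 with RLE normalisation or without a filter, and 1 to 8 with each library left out (8 without IR+PR-LV replicate 1, 2 without IR+PR-LV replicate 3, 3 without IR+NC-LV replicate 2 and 1 otherwise). The count over all genes was 10, and 173 with DESeq2, 342 without a filter beyond 1 count, 42 with robust empirical Bayes estimation, 50 with the GC and length trend removed (chosen after seeing the data), 1 at an adjusted p under 0.01 and 1 to 28 with each library left out (1 without IR+PR-LV replicate 3 or IR+NC-LV replicate 1, 16 without IR+NC-LV replicate 3, 28 without IR+NC-LV replicate 2). The cause was not tested. With the replicate number as a block it was 3, and no collagen call changed. Same-numbered libraries correlated at −0.0088, 0.051 and 0.071 in their deviations from the group means, and not every library correlated best with its own number. With 3 libraries a group, values this weak cannot decide whether the numbers pair the samples.

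Log2 fold changes that changed sign were mostly close to 0 with all libraries. The exceptions were COL3A1, COL11A1 and COL4A3, genes with few counts, and COL18A1, a gene with many. COL18A1 was at 0.12 with all libraries and at −0.14 without IR+PR-LV replicate 1. In that fit COL7A1, at 0.0022 with all libraries, was at −0.18. COL16A1 was at 0.0028 and COL5A2 at 0.0035 without a filter, COL5A2 at 0.011 with the GC and length trend removed, and COL7A1 at −0.010 with upper-quartile normalisation, −0.013 with the replicate block and −0.0099 with the GC and length trend removed. With that trend removed and without IR+PR-LV replicate 1, COL7A1 was at −0.053, COL4A2 at −0.017, COL1A1 at −0.0014 and COL18A1 at −0.039. With each library left out, the log2 fold change ranged from −0.080 to 0.29 for COL10A1, −0.66 to 0.073 for COL11A1, −0.19 to 0.041 for COL14A1, −0.18 to 0.085 for COL16A1, −0.14 to 0.25 for COL18A1, −0.099 to 0.15 for COL1A1, −0.063 to 0.11 for COL27A1, −0.071 to 0.87 for COL3A1, −0.018 to 0.085 for COL4A1, −0.12 to 0.12 for COL4A2, −0.040 to 0.58 for COL4A3, −0.092 to 0.091 for COL5A1, −0.11 to 0.069 for COL5A2, −0.17 to 0.066 for COL6A1, −0.18 to 0.065 for COL6A2, −0.37 to 0.085 for COL6A3 and −0.18 to 0.091 for COL7A1. The median over the tested collagen genes ranged from −0.094 (without IR+PR-LV replicate 1) to 0.083 and the summed level from −0.11 to 0.094. The ratio difference ranged from −0.099 to 0.027 for COL4A2 over COL4A1, −0.022 to 0.046 for COL6A2 over COL6A1, −0.100 to 0.069 for COL5A2 over COL5A1 and −0.16 to −0.088 for COL8A2 over COL8A1.

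Collagen genes with few counts have intervals too wide to resolve changes of the size seen, and 3 libraries a group, with 1 that stood apart, limit the rest.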
